A study of Mus musculus with 6 samples.

Results

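The Lin28 and let-7 axis was followed as 8 genes: the RNA-binding proteins Lin28a and Lin28b, the RNA-binding ubiquitin ligase Trim71, and the known let-7 targets Hmga2, Mycn, Igf2bp1, Igf2bp2 and Igf2bp3. A gene was read from the probe set with a single platform symbol and the highest mean over the 6 arrays. Of the 8 genes 7 were measured in this way, out of 18193 genes in all, by 22 of 45101 probe sets. No probe set carried Igf2bp2 as its single symbol, and this gene was not analysed here. The genes were selected on the haploid and diploid values of the same 6 arrays, in that results of this comparison were known when they were picked, so their values in that comparison are given as a description, with no test.

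RNA of mouse embryonic stem (ES) cells, pluripotent cells from the early embryo, was measured on Affymetrix arrays, 1 per sample, in 3 haploid samples, which carry 1 set of chromosomes, and 3 diploid samples. All were grown in 2i medium, which inhibits the kinases MEK and GSK3, and RNA was taken on day 2 after passaging. The diploid samples were male, of strain 129Sv (replicates 1 and 2) or 129 (replicate 3), and their titles give a replicate number and no line name. Haploid replicates 1 and 2 were the lines HAP1 and HAP2, of F1 CBAxB6 background at passages 24 and 21. Haploid replicate 3 was the line HTG1, of mixed transgenic background at passage 11, and its transgene was not named in the sources used here. Strain, sex chromosome content and ploidy differed together and cannot be told apart. The sources used here do not give what share of cells was still haploid at harvest. Where the samples of a group were not separate lines, a p-value measures only the spread between these samples.

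Lin28 proteins bind the precursors of the let-7 microRNAs and keep them from being cut into mature microRNA, in part by recruiting enzymes that add a tail of uridines. Mature let-7, which rises as embryonic cells differentiate, in turn silences the mRNAs of Lin28, Hmga2, Mycn, Trim71 and the Igf2bp proteins, so that Lin28 and let-7 oppose each other. Lin28a and Trim71 are known for high expression in ES cells. Levels of let-7 itself were not measured by these probe sets.

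The mature sequences are shown because the bases at positions 2 to 8, the seed, select the targets described here. In the RefSeq table (GRCm38.p6) 10 of 11 let-7 family names shared 1 seed, which is in capitals, and let-7j differed in it. Sequences are written from 5′ to 3′.
let-7a-5p: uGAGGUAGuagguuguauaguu
let-7d-5p: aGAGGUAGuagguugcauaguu
let-7e-5p: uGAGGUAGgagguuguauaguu
let-7g-5p: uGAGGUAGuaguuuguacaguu
let-7j: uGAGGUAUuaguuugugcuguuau
miR-98-5p: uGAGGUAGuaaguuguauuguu

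The hairpins are shown because they are the known substrate of Lin28. Its zinc knuckles are known to bind the letters GGAG in the loop region of the precursor. Among 11 family hairpins with both arms annotated, 8 held GGAG between the arms, searched on the RNA strand. The hairpins of Mir98, Mirlet7b and Mirlet7c-2 held no GGAG at any position, whereas 44.5% of 1005 mouse hairpins held it somewhere. Mirlet7g lies within the span of Wdr82 and Mir98 within that of Huwe1, both measured below. GGAG is in capitals, and Mir98 and Mirlet7b have none between the arms. A match is a description of the letters and not a measured site.
Mirlet7g, chr9:106178840-106178927, plus strand: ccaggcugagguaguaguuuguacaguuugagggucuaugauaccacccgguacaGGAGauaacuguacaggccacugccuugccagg
Mirlet7a-1, chr13:48538179-48538272, minus strand: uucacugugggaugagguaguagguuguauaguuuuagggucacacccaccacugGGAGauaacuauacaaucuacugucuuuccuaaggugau
Mir98, chrX:151913214-151913321, plus strand: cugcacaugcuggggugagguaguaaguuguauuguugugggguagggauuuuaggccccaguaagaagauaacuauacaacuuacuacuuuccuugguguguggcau
Mirlet7b, chr15:85707319-85707403, plus strand: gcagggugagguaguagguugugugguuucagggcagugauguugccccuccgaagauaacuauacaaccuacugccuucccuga

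Of the 7 genes, Lin28a and Hmga2 were lower in the haploid samples, each by about 3-fold and with no overlap between the groups, while Trim71, Mycn, Igf2bp1, Igf2bp3 and Lin28b overlapped. Over all 18193 genes, 20.2% were lower in the haploid samples with no overlap between the groups, 17.7% were higher with no overlap, and 1.58% were lower with no overlap and a mean difference of 1 or more on the log2 scale. The rule used this contrast, so nothing is read from the 2 of 7 genes against these shares. The median difference was -0.10 over the 7 genes and -0.03 over all genes (log2).

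Lin28a, on chromosome 4, encodes the let-7 regulator that ES cells are known to use. Its deposited log2 value was 9.73, 10.47 and 10.53 in diploid replicates 1 to 3 and 8.70, 8.35 and 9.20 in haploid replicates 1 to 3. All haploid values lay below all diploid values, with a gap of 0.53 between the nearest ones. The mean was 8.75 ± 0.43 in the haploid and 10.25 ± 0.45 in the diploid samples (SD, n = 3 each), a difference of -1.49 (log2) or 2.82-fold. In such bulk samples, fewer expressing cells and less RNA per cell cannot be told apart. A second probe set of Lin28a stood at 7.31, 7.33 and 7.41 in the diploid and at 6.74, 5.53 and 5.80 in the haploid samples, 2.505-fold lower. The order within the haploid samples differed between the probe sets: replicate 3 was highest in one and replicate 1 in the other.

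Lin28b, on chromosome 10, is the paralog with the same RNA-binding domains. Its only probe set stood at 3.81, 3.23 and 3.14 in the diploid and at 3.17, 3.23 and 3.16 in the haploid samples. Every value was below 4.80, the lowest of the arrays' lower quartiles, so the gene was dim in both groups and no fold is given. Diploid replicate 1 was the highest, and the other 5 values lay close together.

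Hmga2, on chromosome 10, encodes a chromatin-bending protein whose mRNA is the textbook let-7 target. Its value was 9.14, 9.73 and 9.38 in diploid replicates 1 to 3 and 8.51, 7.40 and 7.66 in haploid replicates 1 to 3. The groups did not overlap, and haploid replicate 1 stood apart from the other 2 haploid samples, 0.63 below the nearest diploid value. The mean was 7.86 ± 0.58 in the haploid and 9.42 ± 0.30 in the diploid samples (SD, n = 3 each), a difference of -1.56 (log2) or 2.94-fold. A pair of further bright probe sets gave 3.13-fold and 3.63-fold lower means, and haploid replicate 1 was the highest haploid sample in both. The remaining probe set was dim in every sample, between 3.35 and 3.93, with a difference of -0.42 (log2).

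**Figure D1:**
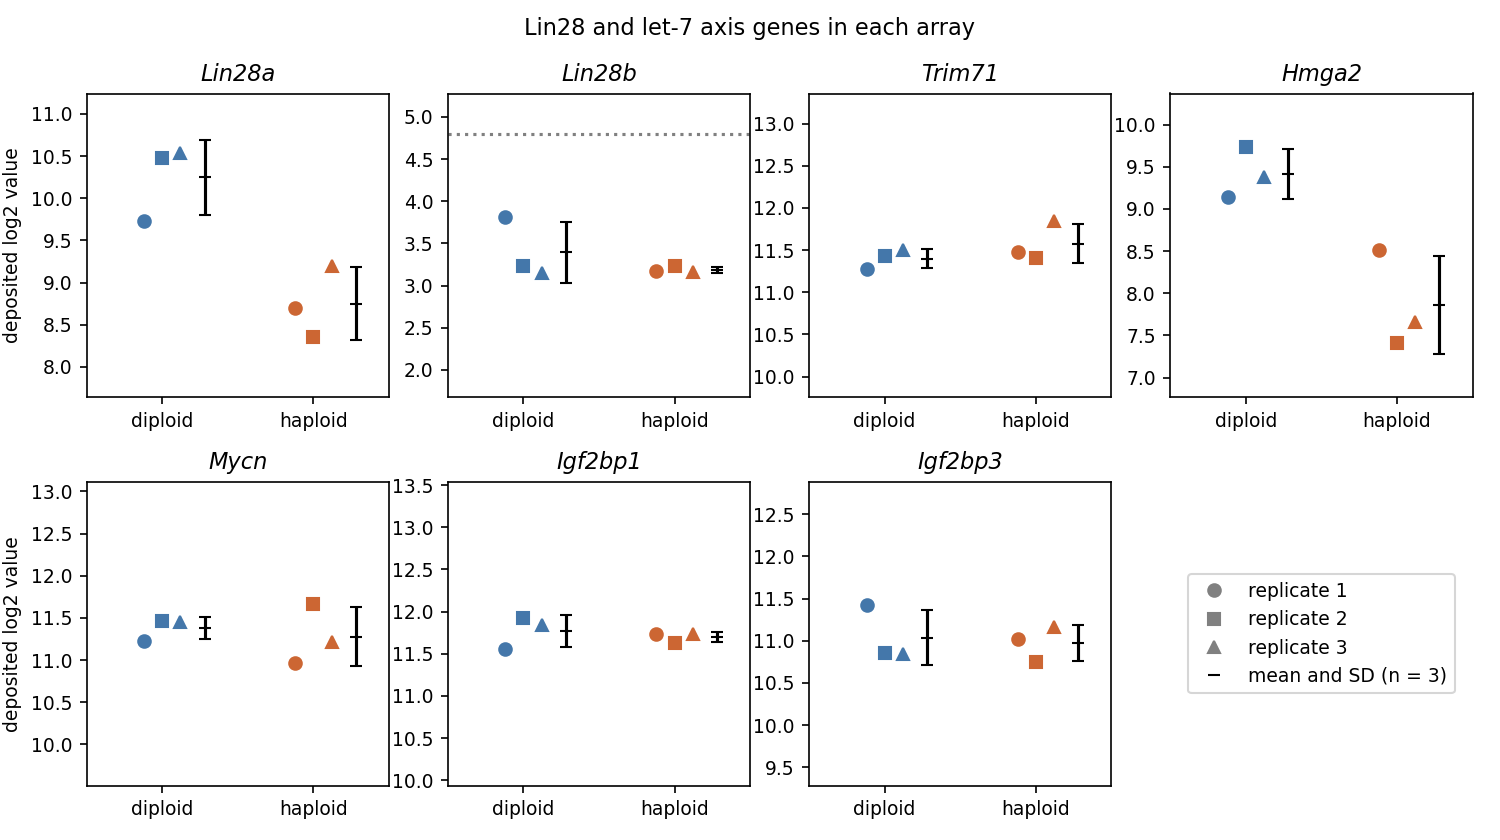
Deposited log2 value of each of 7 genes in 6 arrays (y axis, each panel spanning the same log2 range but centred on its own gene; blue, diploid; orange, haploid; marker shape, replicate), with the group mean and SD as a black bar. Lin28a and Hmga2 show haploid points below all diploid points; Lin28b lies below the dotted line at 4.80, the lowest of the arrays' lower quartiles.

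The promoters of Lin28a and Hmga2 are shown because these are the genes that were lower together. They cover 250 bases before to 50 after the RefSeq start (GRCm38.p6). Both strands were searched for a Sox motif (CATTGT, in 12.6% of 32851 mouse promoters of this length), an octamer (ATGCAAAT, in 1.7%), an E-box (CACGTG, in 7.2%) and a GC box (GGGCGG, in 35.7%), which do not overlap here. Matches are in capitals. Lin28a held a Sox motif and a GC box, and Hmga2 held a GC box. The GC box was also in the windows of Trim71 (1 match), Mycn (2 matches) and Igf2bp2 (2 matches). The E-box was found in the windows of Lin28b (1 match) and Igf2bp3 (2 matches), and the octamer in none of the 7 genes with a promoter in the table. Igf2bp1 had no entry.
Lin28a, chr4:134018767-134019066, minus strand: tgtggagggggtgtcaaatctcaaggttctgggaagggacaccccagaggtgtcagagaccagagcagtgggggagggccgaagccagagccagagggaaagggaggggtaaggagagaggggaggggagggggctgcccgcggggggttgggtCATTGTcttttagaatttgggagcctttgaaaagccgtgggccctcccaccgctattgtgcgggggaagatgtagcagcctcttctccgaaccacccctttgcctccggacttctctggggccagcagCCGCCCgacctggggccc
Hmga2, chr10:120476420-120476719, minus strand: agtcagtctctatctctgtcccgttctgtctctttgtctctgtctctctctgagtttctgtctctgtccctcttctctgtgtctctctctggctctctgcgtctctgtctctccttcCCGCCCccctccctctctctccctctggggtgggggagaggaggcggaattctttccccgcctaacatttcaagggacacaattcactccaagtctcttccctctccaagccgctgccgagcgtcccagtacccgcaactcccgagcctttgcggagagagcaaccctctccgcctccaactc

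Trim71, on chromosome 9, encodes a ubiquitin ligase that also represses mRNAs and is the let-7 target first known from the worm as lin-41. It stood at 11.27, 11.43 and 11.50 in the diploid and at 11.48, 11.41 and 11.84 in the haploid samples, a difference of 0.18 (log2). Haploid replicate 3 was the highest sample, and the groups otherwise overlapped. The other probe set differed by -0.09 (log2), and haploid replicate 3 was the highest there too.

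Mycn, on chromosome 12, encodes a transcription factor of the Myc family. It stood at 11.22, 11.47 and 11.45 in the diploid and at 10.96, 11.66 and 11.21 in the haploid samples, a difference of -0.10 (log2). The lowest and the highest sample were both haploid. Its other probe sets differed by 0.34 and 0.10 (log2), with overlapping groups, so the sign depended on the probe set.

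The Igf2bp proteins bind mRNAs and are known to stabilise and localise them. Igf2bp1, on chromosome 11, stood at 11.55, 11.92 and 11.84 in the diploid and at 11.73, 11.63 and 11.74 in the haploid samples, a difference of -0.07 (log2), and its 4 probe sets ranged from -0.15 to 0.26. Genes of chromosome 11 above the median level were shifted by -0.30 (log2) in the haploid samples as a whole. With each chromosome's shift subtracted Igf2bp1 differed by 0.22, the opposite sign. Igf2bp3, on chromosome 6, stood at 11.42, 10.86 and 10.84 in the diploid and at 11.02, 10.74 and 11.16 in the haploid samples, a difference of -0.06 (log2), and its 6 probe sets ranged from -0.23 to 0.30. Diploid replicate 1 was the highest sample for each of these probe sets. The median gene of chromosome 6 stood at 0.29 in diploid replicate 1 and between -0.11 and -0.0017 in the other 5 samples (log2, relative to all autosomes). The part of these chromosome shifts in the values of single genes was not tested. For Lin28a and Hmga2 the difference was -1.55 and -1.61 (log2) with the shifts of their chromosomes subtracted.

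**Figure D2:**
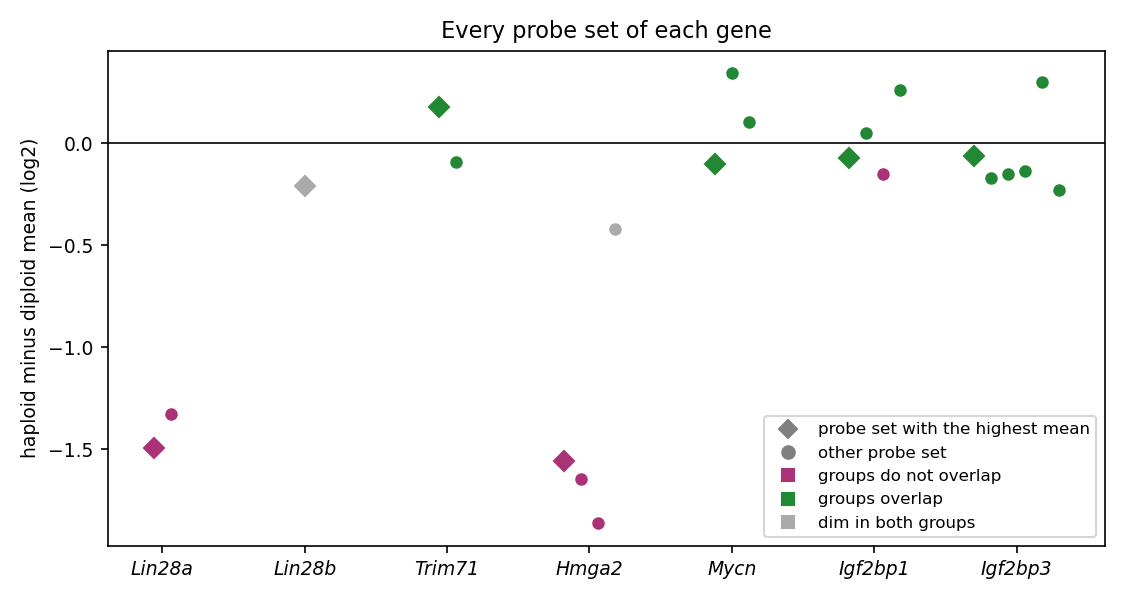
Difference between the haploid and diploid means (y axis, log2) for each of the 22 probe sets, by gene; diamonds are the probe sets used for the genes, and colour gives whether the haploid and diploid values overlap (grey, mean under 4.80 in both groups, whether or not they overlap). All probe sets of Lin28a and Hmga2 lie below 0, and those of Trim71, Mycn, Igf2bp1 and Igf2bp3 lie on both sides of it.

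Haploid replicate 3 was compared with haploid replicates 1 and 2, which have another strain background. This contrast was not used to choose the genes. None of the 7 passed in limma, a linear model fitted over all genes, at an adjusted p of 0.05, against 0.374% of all genes (68 genes). At an unadjusted p under 0.05 the count was 1 of 7, Trim71, against 9.17% of all genes. Trim71 was higher in haploid replicate 3 by 0.40 ± 0.15 (log2, SE, limma adjusted p = 0.518), and Lin28a by 0.67 ± 0.36 (limma adjusted p = 0.679). For Lin28a the mean over its probe sets gave 0.17. Hmga2 differed by -0.29 ± 0.45 (limma adjusted p = 0.953). With 1 array on one side, its spread was taken to be that of the other groups, and the other side held 2 lines, so the contrast sets these arrays against each other and does not show whether lines differ.

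Genes outside these lists whose values, centred over the 6 arrays, lay nearest to Lin28a were Zmat4 (root mean square distance 0.150, log2), Zfp62 (0.186) and Uty (0.191), against a median distance of 0.83 over all genes. Zmat4 and Zfp62 encode zinc finger proteins and lie on chromosomes 8 and 11. Genes of chromosome 11 above the median level were shifted by -0.30 (log2) in the haploid samples. Chromosome 8 was lower too: Irs2, which lies on it, differed by 1.16 and by 1.51 with its shift subtracted. The part of these shifts in Zmat4 and Zfp62 was not tested. Uty is Y-linked, and the diploid samples were labelled male; its haploid values were 4.19 to 4.49, under 4.80. All 3 shared with Lin28a the lower value of diploid replicate 1 among the diploid samples and the higher value of haploid replicate 3 among the haploid ones. They were picked for nearness over these same values, so the shared order comes with the choice and is no separate result. In the second Lin28a probe set the highest haploid sample was replicate 1. Nearest to Hmga2 were Nnt (0.184), Dbn1 (0.189) and Evc2 (0.214). Nnt encodes a mitochondrial transhydrogenase and is known to carry a deletion in the C57BL/6J strain, Dbn1 an actin-binding protein and Evc2 a protein of the cilium. In each of them haploid replicate 1 was the highest haploid sample, as in Hmga2, which again comes with the choice by nearness. Lin28a and Hmga2 were 0.425 apart, and 135 other genes were nearer to Lin28a than Hmga2 was.

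**Figure D3:**
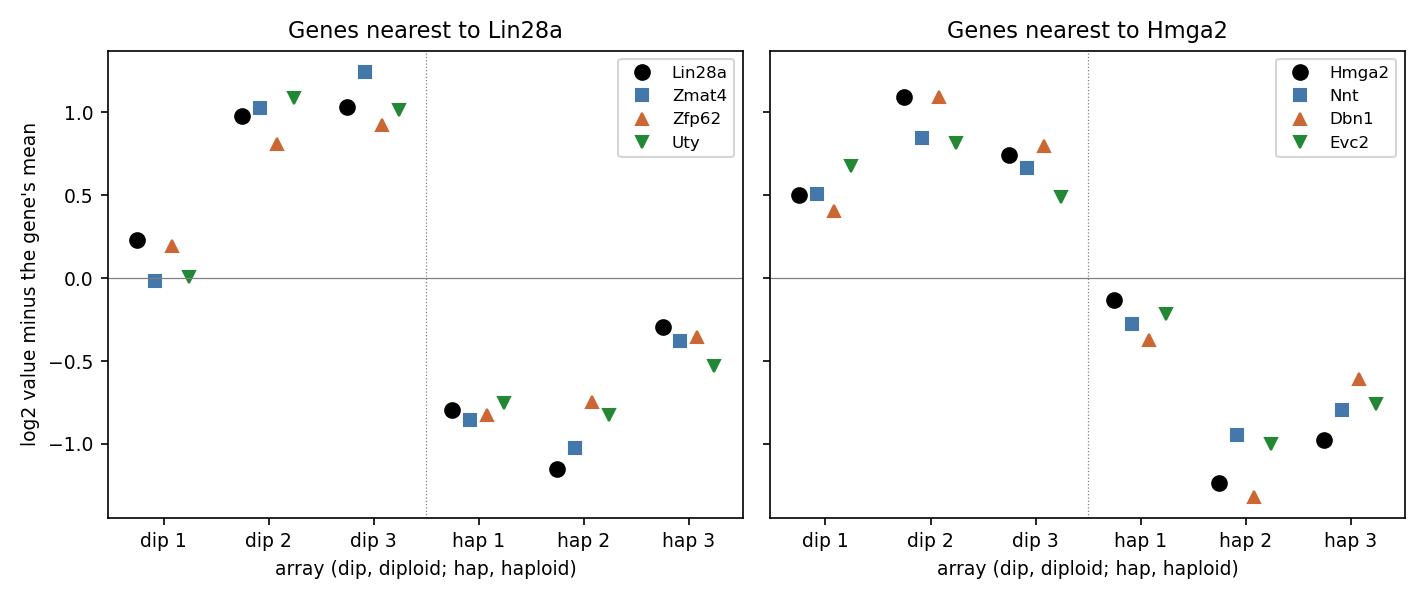
Log2 value minus the gene's mean over the 6 arrays (y axis) in each array (x axis; dip, diploid; hap, haploid) for Lin28a with its 3 nearest genes and for Hmga2 with its 3 nearest genes. Haploid replicate 3 is highest among the haploid samples for Lin28a and haploid replicate 1 for Hmga2.

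Other genes of the pathway were tested in limma over all genes, where 14.9% of genes passed an adjusted p of 0.05. Those higher in the haploid samples made up 7.92% of all genes and those lower 6.96%. Of 62 measured genes from 7 lists 7 passed, 3 higher and 4 lower, or 11.3%. Their median difference was -0.03 (log2), and -0.03 over all genes. Leaving out diploid replicate 3 reduced the count of 7 to 1, leaving out haploid replicate 2 or 1 reduced it to 2 or 4, and leaving out diploid replicate 1 raised it to 10. A further 13 genes passed under at least 1 alternative setting.

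Of 22 other let-7 targets measured, 1 rose and 2 fell in the haploid samples, with a median difference of -0.03 (log2). Cdk6, a kinase that drives entry into S phase, stood at 8.62, 9.33 and 9.13 in the diploid and at 5.90, 6.59 and 7.46 in the haploid samples. Its groups were more than 1 log2 unit apart, and it fell by 2.38 ± 0.38 on the log2 scale, or 5.20-fold (SE, limma adjusted p = 0.010, and 0.050 without diploid replicate 3, where it did not pass). The mean over all Cdk6 probe sets differed by -1.68. Nras, a small GTPase of the Ras family, fell by 0.38 ± 0.10 on the log2 scale (limma adjusted p = 0.0452) and did not pass without any 1 of the 6 arrays (0.0744 to 0.124). Irs2, an adaptor of the insulin receptor, rose by 1.16 ± 0.28 on the log2 scale, or 2.23-fold (limma adjusted p = 0.0373), and lost this call when diploid replicate 1 or 3 or any 1 haploid replicate was left out (0.0548 to 0.131). Fign, named after its values were seen, stood at 4.82, 6.35 and 6.25 in the diploid and at 4.45, 4.94 and 4.80 in the haploid samples, with a haploid mean under 4.80, so that no fold is given. It passed without diploid replicate 1 (limma adjusted p = 0.00798) but not with all arrays (0.114).

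Of 15 genes that process or tail let-7 precursors, none rose and 1 fell. Drosha, the nuclear enzyme that makes the first cut, fell by 0.53 ± 0.12 on the log2 scale, from 12.18, 11.84 and 12.01 in the diploid to 11.47, 11.58 and 11.38 in the haploid samples (limma adjusted p = 0.0270). Averaged over all its probe sets Drosha differed by -0.19 (limma adjusted p = 0.184), and the call was also lost when any 1 array other than diploid replicate 2 was left out (0.0546 to 0.0950). Dicer1, the second cutting enzyme, differed by -0.19 and Tut4, a uridylyl transferase that Lin28a is known to recruit, by -0.01 (log2), neither of which passed (limma adjusted p = 0.368 and 0.969).

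Of 10 Argonaute and silencing genes measured, 1 rose and none fell. Ago2, the Argonaute protein that can cut its targets, rose by 0.54 ± 0.12 on the log2 scale (limma adjusted p = 0.0250). Averaged over all its probe sets it differed by 0.34 (limma adjusted p = 0.138) and 0.40 without probe sets that may match several transcripts (0.0853), and the call was also lost when replicate 1 or 3 of the diploid or 1 or 2 of the haploid samples was left out (0.0552 to 0.0925). Of 3 let-7 host genes measured, Huwe1, an X-linked ubiquitin ligase whose span holds Mir98 and Mirlet7f-2, rose by 0.75 ± 0.11 on the log2 scale (limma adjusted p = 0.00694), and by 0.00 with the shift of the X chromosome subtracted (0.990), where it did not pass. Wdr82, whose span holds Mirlet7g, differed by -0.19 (limma adjusted p = 0.2405).

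None of 5 Trim71 targets passed in limma. An unadjusted p under 0.05 was reached by 2 of 5, against 31.2% of all genes. Cdkn1a, a cell cycle inhibitor, was 0.63 ± 0.22 higher on the log2 scale (limma adjusted p = 0.108, but 0.0353 with array weights), and the Rb family member Rbl1 by -0.14 ± 0.13 (0.518). Egr1, an immediate early gene named after its values were seen, stood at 6.28 in diploid replicate 1, at 11.96 and 12.81 in diploid replicates 2 and 3, and between 5.76 and 6.06 in the haploid samples. It therefore split the diploid samples, and did not pass with all arrays (limma adjusted p = 0.101) but did without diploid replicate 1 (0.00151). Of 4 mRNAs bound by Igf2bp proteins 1 fell: Cd44, a cell surface receptor, was at least 2.28-fold lower in the haploid samples, whose mean lay under 4.80 (log2 difference -1.19 ± 0.32, limma adjusted p = 0.0477). Cd44 did not pass after quantile normalization or without any 1 array other than diploid replicate 1 (0.0569 to 0.116), and averaged over all its probe sets it differed by -0.69. Igf2, named after its values were seen, stood at 7.40 in diploid replicate 1, at 9.46 and 9.04 in the other diploid samples and between 7.37 and 7.75 in the haploid ones, and passed without diploid replicate 1 (difference -1.70, limma adjusted p = 0.00794) but not with all arrays (0.183). None of 7 paralogs of the genes passed, and 3 of 7 had an unadjusted p under 0.05, against 31.2% of all genes. Of the brightest, the cold shock domain proteins Ybx1 and Ybx3 had log2 differences of 0.13 and -0.14 (limma adjusted p = 0.326 and 0.463).

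**Figure D4:**
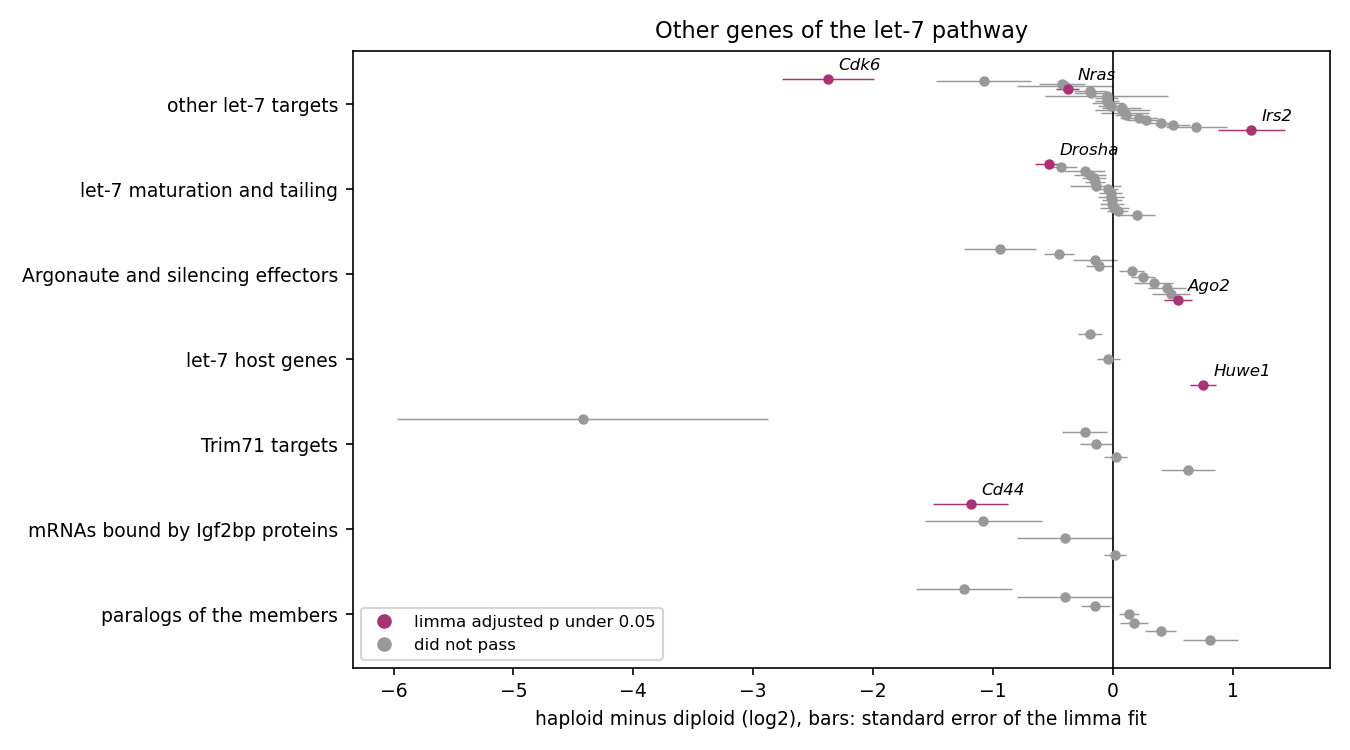
Haploid minus diploid difference (x axis, log2) of the measured genes of 7 lists (y axis; a gene in 2 lists is drawn in both), with the standard error of the limma fit as bars; the 7 genes that passed are coloured and named. They lie on both sides of 0, from Cdk6 at -2.38 to Irs2 at 1.16.

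Markers of cell types were read beside these results. Counts of markers that passed are to be read against all genes, of which 7.92% rose and 6.96% fell at a limma adjusted p under 0.05. All 8 markers of pluripotent cells were above 4.80 in both groups, and 3 of 8 rose and none fell in the haploid samples: Pou5f1, Nanog and Klf4, by 0.40, 0.47 and 0.68 (log2, limma adjusted p = 0.0246, 0.0227 and 0.00540). With the shift of chromosome 17 subtracted, Pou5f1 differed by 0.32 and did not pass (0.0544). The summed log2 level of the 8 was 103.70 to 103.94 in the haploid and 100.67 to 101.59 in the diploid samples. None of 7 primed or formative epiblast markers and none of 6 primitive endoderm markers passed. An unadjusted p under 0.05 was reached by 2 of 7 and 1 of 6, against 31.2% of all genes. Of 7 fibroblast markers 1 fell, Col1a2 by 2.62 on the log2 scale (limma adjusted p = 0.00326). The summed level of the 7 was 37.70 to 39.77 in the haploid and 43.05 to 49.56 in the diploid samples, and the collagen Col3a1, named after its values were seen, stood at 8.002 in diploid replicate 1, at 5.17 and 4.90 in diploid replicates 2 and 3 and between 3.84 and 4.24 in the haploid samples. Col1a1, also named after its values were seen, was lowest among the diploid samples in diploid replicate 1 (7.63, against 7.75 and 7.74). Every other measured fibroblast marker was highest there among the diploid samples, as was Col1a2 (9.34, against 8.41 and 8.38). Col1a1, Col1a2, Col3a1, Postn and Lum were lower in the haploid samples at a limma unadjusted p under 0.05, against 31.2% of all genes in either direction. Thy1 and Twist1 did not reach it, and they, Postn and Lum were named after their values were seen. Diploid replicate 1 had the lowest diploid Lin28a and Hmga2, and without it these differed by -1.75 and -1.70 (log2). In the second Lin28a probe set diploid replicate 1 was nearly level with the other diploid samples (7.31, against 7.33 and 7.41). Of 5 neural progenitor markers 1 fell, Sox1 by 1.32 on the log2 scale (limma adjusted p = 0.0170). With the shift of chromosome 8 subtracted, Sox1 differed by -0.97 and still passed (0.0433). The summed level of the 5 was 29.74 to 30.50 in the haploid and 31.56 to 33.33 in the diploid samples, and the part of pluripotent, fibroblast and neural marker levels in the results above was not tested.

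Across the whole series 2707 genes passed in limma. With diploid replicate 3 left out 970 passed, with diploid replicate 2 left out 1196, and with haploid replicate 2 left out 1429. Array medians lay between 6.31 and 6.34 (log2), and 3 arrays per group set the precision of these comparisons.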

How the data were processed

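The deposited values are on a log2 scale, and the authors used RMA according to the submitters' processing notes; its software and settings are not given in the sources used here. RMA in its usual form subtracts background, equalises the arrays' distributions and summarises the probes of a set, so changes in total RNA per cell cannot be seen and differences of dim genes are compressed. Of 45101 probe sets, 64 controls were left out, and 34945 had 1 symbol in GEO's platform annotation, 932 several and 9160 none. Entrez numbers gave the chromosome through the RefSeq table of assembly GRCm38.p6 (34741 probe sets). Groups came from the labels.

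Genes were fitted with limma 3.58.1 in R 4.3.3 (lmFit, eBayes, two-sided, no covariate), with Benjamini-Hochberg adjustment over all 18193 genes and a threshold of 0.05. The contrast among haploid samples used 3 groups. The fit of haploid against diploid samples was tested on simulated data. The members, lists and tests were chosen with earlier results of these data known. The text names the 7 measured members, every list gene that passed (else the 2 brightest of its list), and the 3 nearest genes of each member that differed by 1 or more (log2); other genes are marked as named after their values were seen, apart from Dicer1, Tut4 and Wdr82, given for their role. Alternatives were quantile normalization, aligned medians, mean or unmarked probe sets, brighter genes, subtracted chromosome shifts, trend and robust settings, array weights and omission of each array. Sequences are from RefSeq.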

Additional observations from a re-analysis of the deposited data

How the results depend on the processing

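Lin28a and Hmga2 stayed lower in the haploid samples under all 10 alternatives each, single probe sets aside, from -1.75 to -1.29 and from -1.88 to -1.33 (log2), the extremes coming from the omission of 1 array. Trim71 stayed between 0.04 and 0.26, while Mycn ranged from -0.29 to 0.12, Igf2bp1 from -0.18 to 0.22 and Igf2bp3 from -0.16 to 0.13. Between haploid replicate 3 and the other haploid samples Mycn turned from -0.10 to 0.013 when its probe sets were averaged. The number of genes passing between haploid and diploid samples was 970 to 2428 with 1 array left out, with 399 to 1082 of them lower. With quantile normalization 1234 were higher and 1457 lower, against 1441 and 1266. The 7 pathway genes became 18 with array weights, and 1 to 10 with 1 array left out. None of the 7 passed under every alternative. The 68 genes that passed between haploid replicate 3 and the other haploid samples became 26 among genes above the median level, where fewer genes are tested, and 106 with array weights. Where no reason is named, the cause was not tested. No paired analysis was possible because the titles number the diploid samples as replicates, whereas a number in a haploid title belongs to a line name. Precision is limited by 3 arrays per group and, for Lin28b, by signal close to background.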
